A study of Mus musculus with 4 samples.

Results

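Classical monocytes are blood monocytes with high Ly6C that leave the bone marrow through the chemokine receptor CCR2 and enter inflamed tissue and tumors, where they can become macrophages or cells with dendritic features. Here they were taken from tumors grown from LLC, the mouse Lewis lung carcinoma line, as the barcodes with at least 5 UMIs (unique molecular identifiers, each standing for 1 captured RNA molecule) of Ly6c2, at least 1 of Ccr2 and at least 5 of Lyz2, among barcodes that showed 200 genes or more and had a mitochondrial share of 10% or less. Barcodes were left out that had 3 or more Cxcl1 UMIs, 10 or more Arg1 UMIs, 20 or more UMIs of C1qa, C1qb and C1qc together, 8 or more of Ifit1, Ifit2, Ifit3 and Rsad2 together, S100a9 at 0.5% of UMIs or above, or any UMI of Cd3e or Siglech. The rule took 2241 of 23034 filtered tumor barcodes, in a series of 4 libraries with 43059 deposited barcodes. These 2241 barcodes are called members.

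The study compared mice of genotype S100a8fl/flVav-Cre+/-, in which Cre driven by the Vav promoter deletes S100a8 in blood-forming cells (called KO), with S100a8fl/flVav-Cre-/- mice, which carry the same floxed alleles without Cre (called WT). CD45+ cells, that is, leukocytes, were sorted from LLC tumors of untreated mice and loaded on a 10x Genomics Chromium instrument. Each group is 1 library pooled from 3 mice, so no difference below has a replicate check, no test was possible, and every interval is a 95% interval for counting error only. Since Vav-Cre acts in blood-forming cells as a whole, loss of S100a8 in the monocytes and in other blood cells cannot be told apart.

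S100a8 and S100a9 encode the paired subunits of calprotectin, a calcium- and zinc-binding protein that neutrophils and inflammatory monocytes hold in large amounts and that signals through TLR4 when released. Monocytes present antigen on MHC class II when activated, a program run by the coactivator CIITA, and respond to type I interferon with a large set of antiviral genes that includes the amplifying factor IRF7. Inflammatory monocytes in turn make IL-1, prostaglandin E2 and matrix proteins such as thrombospondin.

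The KO library gave 1054 members of 11413 filtered barcodes, or 9.24% (exact Clopper-Pearson interval 8.71 to 9.78), and the WT library 1187 of 11621, or 10.2% (9.67 to 10.8). Their ratio was 0.904. Among barcodes with at least 5 Lyz2 UMIs and no Cd3e, members were 17.7% of 5941 in KO and 40.2% of 2954 in WT. That denominator has no limit on S100a9, Cxcl1, Arg1, C1q or interferon genes, so it is not one of monocytes only. Among barcodes that met every criterion apart from the Cxcl1, Arg1, C1q and interferon ceilings, members were 71.9% of 1465 in KO and 81.1% of 1463 in WT. The share of all barcodes turned on the Ly6c2 minimum and on barcodes with lymphocyte UMIs: with a minimum of 3 UMIs the ratio was 1.02, with a minimum of 10 it was 0.725, and without members of at least 5 lymphocyte-list UMIs it was 1.00. The direction of the share between the libraries was therefore not settled.

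How barcodes missed the rule differed between the libraries. The Ly6c2 minimum alone removed 1299 KO and 733 WT barcodes that met every other criterion. Cxcl1 alone removed 194 KO and 47 WT barcodes, and Cd3e alone 86 KO and 356 WT. The interferon-gene ceiling alone removed 46 KO and 113 WT barcodes. Near the Ly6c2 threshold, 171 KO and 81 WT members had 5 or 6 UMIs, and 257 KO and 121 WT barcodes had 3 or 4 and met the rest.

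Members held 12701477 UMIs in KO and 11920581 in WT, with medians of 11475.5 and 8952 UMIs and 2651.5 and 2438 genes per member. The median mitochondrial share was 1.80% in KO and 1.34% in WT. Because KO members were deeper, levels are given as counts per 1000000 UMIs of all members of a library (CPM), and per-barcode values after thinning each member to 3000 UMIs, which 1053 KO and 1172 WT members reached. The tumor libraries shared 33 barcode sequences, and 0 were members in both.

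The monocyte label was checked against genes the rule did not use. Csf1r, the receptor for the macrophage growth factor CSF1, had a UMI in 93.9% of KO and 89.0% of WT members, at 331 and 309 CPM. Of 12 B cell list genes, 6 had no UMI in KO members and 5 none in WT members, with Ms4a1 at 0 in both. At least 50 UMIs over both libraries were reached by 2 of them. The list summed to 47.8 CPM in KO and 67.7 CPM in WT members, against 51.8 and 116 CPM in barcodes marked by Cd3e, described below. Lymphocyte and dendritic marks were present in a minority, and more often in WT. At least 5 UMIs of the T, NK and B cell lists together were found in 149 KO members (14.1%) and 269 WT members (22.7%). A UMI of Cd209a or Flt3, which mark monocyte-derived and conventional dendritic cells, was found in 96 KO (9.11%) and 154 WT (12.97%) members. Doublet scores marked 30 KO (2.85%) and 89 WT (7.50%) members. These shares are not like for like, since KO used the automatic threshold and WT the top 9.62% of scores. Values are therefore also given for a stricter set, chosen after the data were seen, without members that had at least 5 lymphocyte-list UMIs, a Cd209a or Flt3 UMI, or under 20 Lyz2 UMIs; it held 819 KO and 825 WT members.

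Free RNA in droplets gives UMIs of a gene in cells that do not express it. Members are therefore set beside barcodes with at least 2 Cd3e UMIs and no Csf1r (1004 KO and 2830 WT), called T-marked, whose median depths were 6769.5 and 6065.5 UMIs. For several genes the T-marked mean came from a minority of these barcodes, so it is not an even background and is not subtracted.

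S100a8 (chr3:90668978-90670035, plus strand; all coordinates are GRCm38) had 0 UMIs in KO members and 138 UMIs, or 11.6 CPM, in WT members. T-marked barcodes of the WT library held it at 14.5 CPM, so the WT members were not above them in CPM. After thinning, however, 2.65% of WT members and 0.922% of WT T-marked barcodes had an S100a8 UMI. The ceiling on S100a9 also limits barcodes with much S100a8. In barcodes with S100a9 at or above the ceiling, which are rich in neutrophils, the S100a8 level was 3.81 CPM for KO against 13710 CPM for WT, which goes with the labels. S100a9 (chr3:90692632-90695721, minus strand), which the rule capped, was at 123 CPM in KO members against 9.65 CPM in WT members. T-marked barcodes, which had no such ceiling, were at 715 and 28.2 CPM, and after thinning 23.9% of KO and 1.36% of WT T-marked barcodes had an S100a9 UMI. The KO library had 3175 S100a9-high barcodes where the WT library had 217, and the part of free RNA in the members' S100a9 was not tested.

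The genes that chose the members are a description only. Lyz2, a lysozyme of myeloid cells, was at 18613 CPM in KO members against 17326 CPM in WT members, and Ccr2 at 553 and 562 CPM. Their ratios of KO over WT were 1.07 and 0.985. Ly6c2 (chr15:75108158-75111970, minus strand) was at 1418 CPM in KO members against 3448 CPM in WT members, a ratio of 0.411, although both had met the same minimum. After thinning, the median member had 3 Ly6c2 UMIs in KO and 9 in WT. Its near copy Ly6c1 had 7 KO and 16 WT UMIs in all, too few to compare.

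Genes were measured where the members of the libraries together gave 50 UMIs or more. Of 9432 such genes, 412 (4.37%) were at least 1.5-fold higher in KO members and 1600 (17.0%) at least 1.5-fold lower. The median gene had a log2 ratio of -0.18, so these counts lean toward lower; centred on that median, 689 were higher and 1052 lower, which moves the higher share of the genes past 1.5-fold from 20.5% to 39.6%. In the stricter set 346 of 8608 genes (4.02%) were higher and 1135 (13.2%) lower. List counts below are read against these shares.

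**Figure D1:**
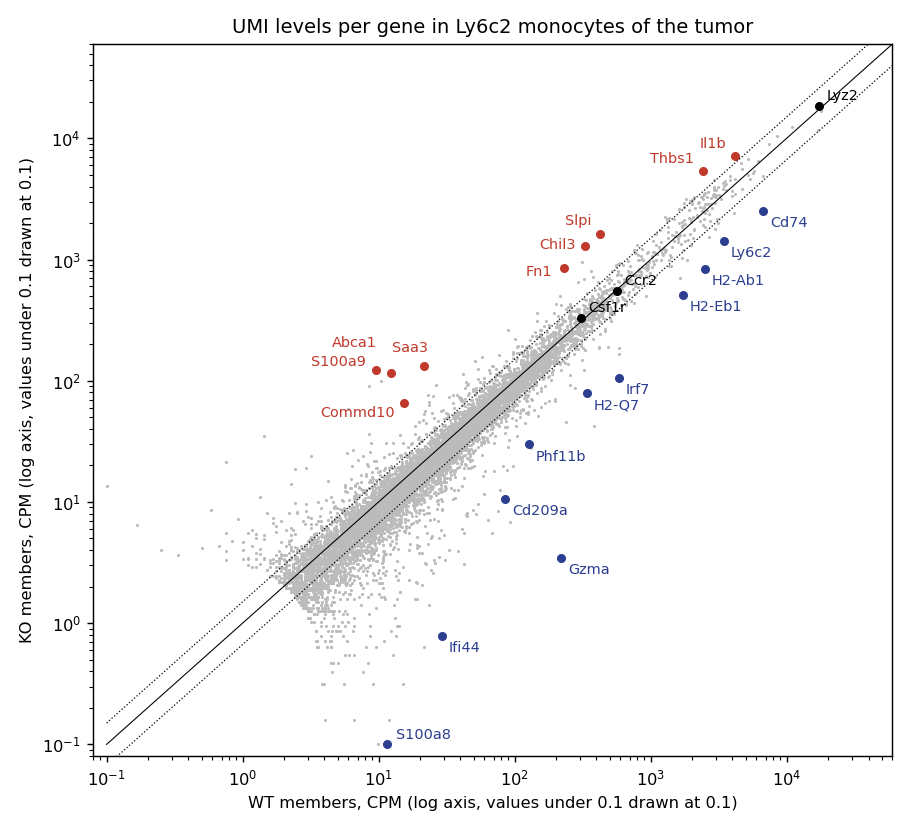
Each point is a gene with at least 50 UMIs, at its CPM in WT members (x axis) and KO members (y axis), both on log axes; the solid line marks equal levels and the dotted lines 1.5-fold. Thbs1, Il1b, Slpi, Chil3 and Fn1 lie above the upper line at high levels, and Cd74, Ly6c2, H2-Ab1, H2-Eb1 and Irf7 below the lower line, while Lyz2, Ccr2 and Csf1r lie near the solid line.

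Genes for secreted and lipid-handling proteins stood highest in KO members. Chil3 (chr3:106147554-106167564), a chitinase-like secreted protein of monocytes and macrophages, was at 1298 CPM in KO members against 327 CPM in WT members, a ratio of 3.97 (3.84 to 4.11). Slpi (chr2:164354070-164389095), a secreted inhibitor of leukocyte proteases, was at 1626 and 425 CPM, a ratio of 3.82. Fn1 (chr1:71585520-71653200), which encodes fibronectin, was at 844 and 229 CPM, a ratio of 3.68. All 3 were abundant, and their ratios in the stricter set were 3.48, 2.71 and 3.39. T-marked barcodes held Chil3 at 11.02 CPM in KO against 2.33 CPM in WT, far under the members. Slpi was the exception, with 299 CPM in T-marked barcodes of KO and 15.4 CPM in WT. An Slpi UMI was found in 21.3% and 1.11% of T-marked barcodes after thinning. These transcripts were spread over many members: after thinning, 71.9% of KO and 33.9% of WT members had a Chil3 UMI, 76.4% and 34.8% one of Fn1, and 63.2% and 35.0% one of Slpi. T-marked barcodes thinned alike had a Chil3 UMI in 2.13% and 0.258%.

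Less abundant genes reached larger ratios. Abca1 (chr4:53030787-53159895), which exports cholesterol from macrophages, had 1478 UMIs (116 CPM) in KO and 148 UMIs (12.4 CPM) in WT members, a ratio of 9.37 (7.91 to 11.2). Its ratio in the stricter set was 8.38. After thinning, no Abca1 UMI was found in 75.3% of KO and 96.7% of WT members. Saa3, an acute-phase serum amyloid protein, was at 131 and 21.7 CPM, and 92.4% of KO members had no UMI of it after thinning, so its level sat in few members.

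Other genes with high ratios were Commd10 (66.1 and 15.4 CPM, ratio 4.28), Mmp8, a neutrophil collagenase (92.2 and 26.3 CPM), F5, coagulation factor V (76.6 and 23.2 CPM), and Dmkn (260 and 89.1 CPM). The noncoding RNA AY036118 was at 953 and 315 CPM in members, a ratio of 3.03. It was as different in T-marked barcodes, at 1003 and 346 CPM, so its difference was not seen in members alone.

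Among classical monocyte list genes, 9 of 26 were higher in KO and 3 lower, with a median log2 ratio of 0.28. Besides Chil3 and Fn1, the higher genes were Vcan, a matrix proteoglycan (801 and 363 CPM), F13a1, coagulation factor XIII (418 and 220 CPM), Cd14, the lipopolysaccharide coreceptor (3130 and 1832 CPM), Hp, haptoglobin (905 and 558 CPM), Mgst1, a glutathione transferase (343 and 210 CPM), and the lectins Clec4e and Clec4d. The lower genes were Ly6a (87.7 and 276 CPM), the interferon-regulatory factor gene Irf8 (112 and 255 CPM) and Ms4a4c. The most abundant members of the list differed little: Ifitm3 was at 4612 and 5375 CPM, and Plac8 at 3784 and 4707 CPM. In the stricter set 4 were higher and 3 lower of 26, with a median of 0.13. T-marked barcodes had 14 of 26 of these list genes higher in KO and 2 lower, with a median of 0.63. Over all genes, 6.27% were higher in KO T-marked barcodes. The part of RNA from other cells in the members' values was not tested. Thbs1, thrombospondin 1, was at 5423 CPM in KO members against 2426 CPM in WT members, a ratio of 2.23, and 1.80 in the stricter set.

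MHC class II genes were lower in KO members. Cd74, the invariant chain that guides class II molecules, was at 2524 CPM in KO members against 6744 CPM in WT members. H2-Ab1 (chr17:34257689-34269419), a class II beta chain, was at 835 and 2490 CPM, and H2-Aa (chr17:34282744-34287823), its alpha chain, at 833 and 2432 CPM. H2-Eb1 (chr17:34305867-34316674), another beta chain, was at 510 and 1719 CPM. All 4 were lower in KO by 2.67- to 3.37-fold, and by 2.42- to 3.01-fold in the stricter set. The regulator Ciita was at 8.58 and 29.4 CPM. H2-DMb2, which loads peptides, was at 4.41 and 19.1 CPM.

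Of the 15 MHC class II list genes measured, 11 were lower, none was higher, and the median log2 ratio was -1.27, beside -0.18 over all genes. The stricter set gave 9 lower of 13 and a median of -1.15. The same genes also differed between T-marked barcodes of the libraries, where 15 of 16 were lower in KO (7.04% of all genes were) with a median of -1.83. Per barcode, H2-Eb1 was at 6.14 UMIs in KO and 17.3 in WT members, against 1.67 and 8.30 in T-marked barcodes. Cd74 was at 30.4 and 67.7 UMIs, against 4.38 and 22.2. The part of RNA from other cells in the members' class II values was not tested.

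At equal depth the class II genes were uneven among members. The sum of H2-Aa, H2-Ab1, H2-Eb1 and Cd74 had a median of 2 UMIs in KO and 8 in WT members, upper quartiles of 13 and 52, and 90th percentiles of 49 and 117.9. No UMI of the 4 genes was found in 28.2% of KO and 12.1% of WT members. For Cd74 alone, 62.7% of KO and 81.7% of WT members had a UMI, against 23.9% and 38.2% of T-marked barcodes thinned to the same 3000 UMIs.

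**Figure D2:**
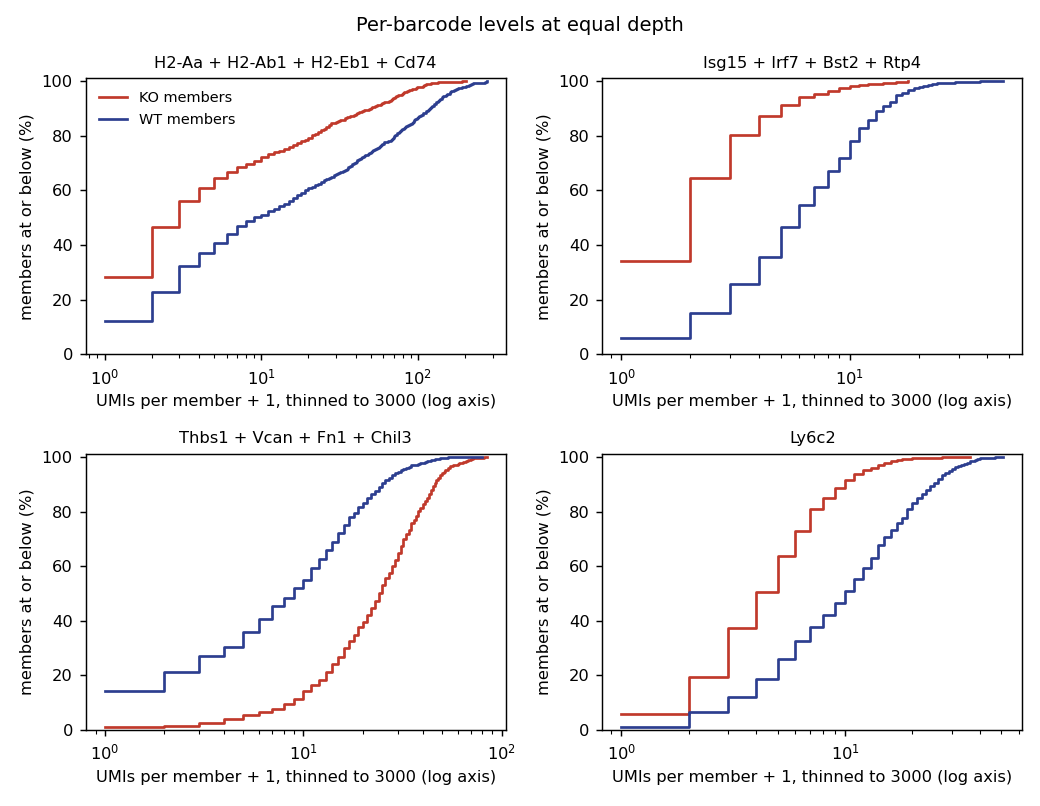
Each panel gives the percent of members (y axis) at or below a number of UMIs (x axis, log of UMIs + 1) after thinning to 3000 UMIs, red for the 1053 KO and blue for the 1172 WT members. The KO curve lies left of the WT curve for class II genes, interferon genes and Ly6c2, with medians of 2 and 8, 1 and 5, and 3 and 9 UMIs, and right of it for Thbs1, Vcan, Fn1 and Chil3, with medians of 23 and 8.

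Class II promoters carry a Y box, an inverted CCAAT element bound by NF-Y, just upstream of the start. The letters CTGATTGG, searched on both strands of the windows of 250 bases before to 50 after each gene's start in the RefSeq table of GRCm38.p6, were found in 4.10% of 32851 windows and in 4 of the 11 MHC class II list genes in that table. A match is a description of letters, not of binding. The 120 bases before the start are shown for a pair of genes that carry it, both among the lower class II genes, with the match in capitals.
H2-Aa, chr17:34287824-34287943, minus strand: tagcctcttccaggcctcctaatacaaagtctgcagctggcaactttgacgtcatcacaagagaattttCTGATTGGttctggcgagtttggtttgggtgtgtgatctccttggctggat
H2-Eb1, chr17:34305747-34305866, plus strand: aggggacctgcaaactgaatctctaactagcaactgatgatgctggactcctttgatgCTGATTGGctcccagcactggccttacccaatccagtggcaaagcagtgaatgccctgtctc
The match begins 51 bases before the start of H2-Aa and 62 before that of H2-Eb1.

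Type I interferon response genes were also lower in KO members. Irf7 (chr7:141262706-141266481), which amplifies the interferon response, had 1340 UMIs (105 CPM) in KO and 6934 UMIs (582 CPM) in WT members, and was 5.51-fold lower in KO (5.20 to 5.85). Isg15 (chr4:156199424-156200818), a ubiquitin-like protein, was at 167 and 585 CPM, and Bst2, which tethers viruses, at 187 and 582 CPM. Phf11b (chr14:59320964-59341351) was at 29.8 and 127 CPM. The lowest ratios were those of low-count genes: Ifi44 had 10 UMIs in KO and 348 in WT, and Ifi208 had 2 and 142.

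Of the 66 list genes measured, 42 were lower, none was higher, and the median log2 ratio was -0.79. The rule had capped Ifit1, Ifit2, Ifit3 and Rsad2, which are not in these counts, and the cap removed more WT than KO barcodes, 113 against 46. In the stricter set 49 of 65 were lower, with a median of -0.95. In T-marked barcodes 17 of 66 were lower, with a median of -0.39. Per barcode, Irf7 was at 1.27 UMIs in KO and 5.84 in WT members, against 0.483 and 0.754 in T-marked barcodes. After thinning, 25.1% of KO and 68.0% of WT members had an Irf7 UMI, against 12.7% and 20.02% of T-marked barcodes. The sum of Isg15, Irf7, Bst2 and Rtp4 had a median of 1 UMI in KO and 5 in WT members, and was 0 in 34.3% and 5.89%. Genes of this list in families of near copies (Ifi204 to Ifi213 and Mndal, Phf11, Oas, Slfn, Ms4a4) can share reads, and the counting may have split them.

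Interferon-stimulated promoters carry a response element whose core is the letters GAAA, then any 2 bases, then GAAA again. That core, on either strand, was found in 3.44% of the 32851 windows and in 28 of 57 list genes in the table. It is shown in capitals in the 120 bases before the start of genes that were among the lower in KO members; in Isg15, 3 matches overlap.
Isg15, chr4:156200819-156200938, minus strand: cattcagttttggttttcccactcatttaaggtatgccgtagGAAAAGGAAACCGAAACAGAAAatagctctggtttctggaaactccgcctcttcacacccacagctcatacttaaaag
Phf11b, chr14:59341331-59341450, minus strand: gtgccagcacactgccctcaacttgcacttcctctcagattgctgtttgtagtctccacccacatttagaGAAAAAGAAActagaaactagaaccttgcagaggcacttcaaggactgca
Ifi213, chr1:173599273-173599392, minus strand: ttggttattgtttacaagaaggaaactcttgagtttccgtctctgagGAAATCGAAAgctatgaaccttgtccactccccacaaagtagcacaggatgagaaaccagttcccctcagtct
In Isg15, which was 3.50-fold lower in KO, the leading match begins 78 bases before the start. It begins 50 bases before the RefSeq start of Phf11b, 4.25-fold lower, and 73 before that of Ifi213, 3.36-fold lower. The RefSeq start of Phf11b lies inside the gene span given above, which is from GENCODE, so part of its printed stretch falls within that span.

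MHC class I presentation genes were lower in KO members as well. Of 25 genes measured, 18 were lower in KO and none higher, with a median log2 ratio of -0.73. B2m, the light chain, was at 2144 CPM in KO members against 3092 CPM in WT members, H2-D1 at 1800 and 2999 CPM, and H2-K1 at 992 and 1863 CPM. The proteasome and transporter genes Psmb8, Psme1 and Tap1 were 1.86-, 1.58- and 1.66-fold lower. H2-Q7 was at 79.2 and 338 CPM and H2-Q6 at 19.8 and 96.6 CPM, but the H2-Q genes are near copies whose reads may be split. In T-marked barcodes 3 of 25 were lower, with a median of -0.30. Of 34 interferon gamma response genes, 21 were lower and 1 higher, with a median of -0.67. The higher gene was Nos2, inducible nitric oxide synthase, with 272 UMIs in KO and 9 in WT members (21.4 and 0.755 CPM), and 2.28% of thinned KO members had a UMI of it.

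**Figure D3:**
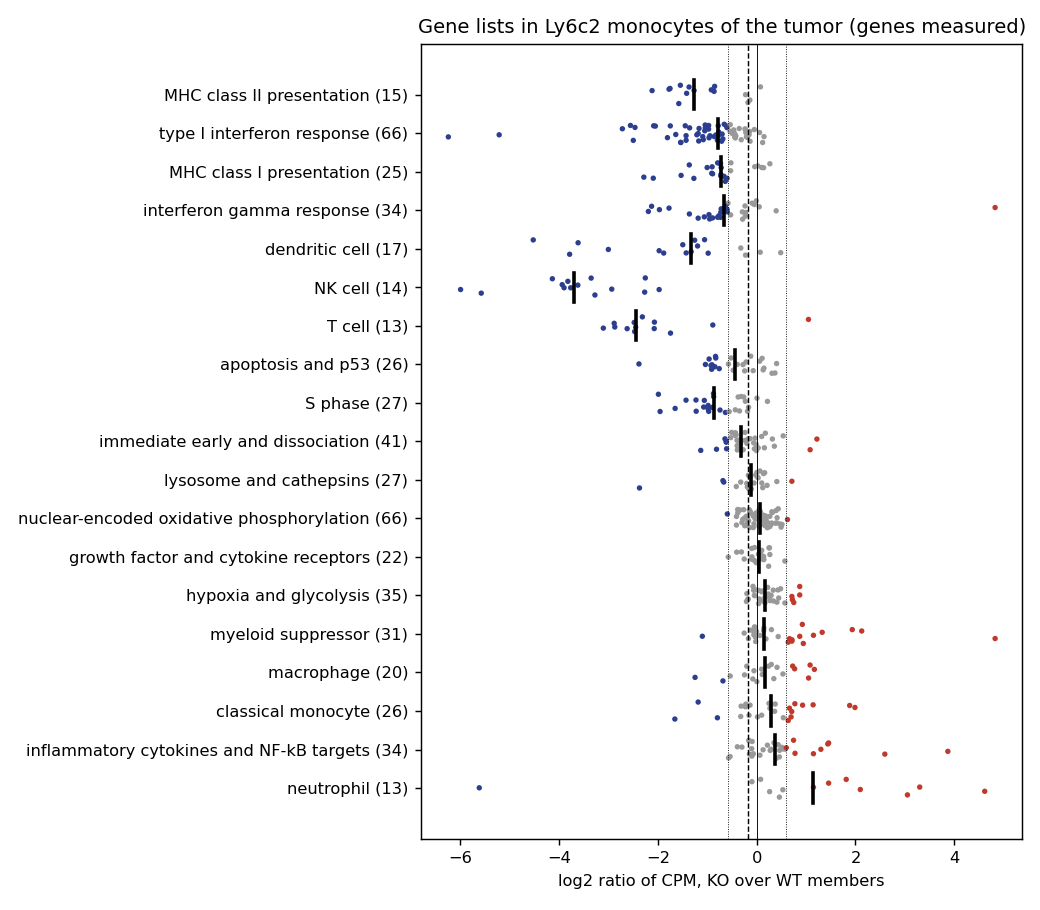
Each point is a measured gene of a list, at its log2 ratio of CPM in KO over WT members (x axis), red where at least 1.5-fold higher, blue where at least 1.5-fold lower; bars are list medians, the dashed line the median of all genes (-0.18) and dotted lines 1.5-fold. Medians run from -3.69 for NK cell markers to 1.15 for neutrophil markers, with MHC class II at -1.27, interferon at -0.79 and inflammatory cytokines at 0.36.

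Inflammatory genes were higher in KO members, by less. Il1b, interleukin 1 beta, was at 7191 CPM in KO members against 4200 CPM in WT members, a ratio of 1.71, and 1.57 in the stricter set. Ptgs2, cyclooxygenase 2, was at 654 and 295 CPM, and Acod1, which makes itaconate, at 114 and 41.5 CPM. Il1a had 390 and 135 UMIs. Of 34 list genes 9 were higher and none lower, with a median log2 ratio of 0.36. In the stricter set 7 of 33 were higher and 1 lower, with a median of 0.15. T-marked barcodes differed as much, with 12 of 34 higher in KO and 3 lower, and a median of 0.38. The difference was therefore not seen in members alone, and the part of RNA from other cells in it was not tested. Il12b had 109 UMIs in KO and 7 in WT members, but 0.0950% of thinned KO members had a UMI of it, and the stricter set held 0 CPM of it in KO, so its ratio rested on very few barcodes. The abundant NF-kB targets Nfkbia (2169 and 1983 CPM) and Ier3 (2156 and 1486 CPM) stayed inside 1.5-fold.

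Chemokine genes were mixed, with 3 of 19 higher and 6 lower. Cxcl2 and Cxcl3, which attract neutrophils, were at 6275 and 4610 CPM and at 360 and 147 CPM. Ccl8 had 64 UMIs in KO and 289 in WT members. Ccl5 was at 42.5 and 384 CPM in members and at 4463 and 3972 CPM in T-marked barcodes, and in the stricter set it was 2.49-fold lower in KO. Among receptors for chemoattractants, Fpr1, Fpr2 and C5ar1 were higher in KO, at ratios of 4.05, 1.94 and 1.72. Ccr1 was at 406 and 260 CPM. Of this receptor list 5 of 22 were higher and 2 lower, but the stricter set had 2 of 20 higher and 3 lower. There C5ar1 and Ccr1 came inside 1.5-fold, at ratios of 1.37 and 1.32.

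Of 31 genes of the myeloid suppressor list, 12 were higher in KO and 1 lower, with a median log2 ratio of 0.15. Arg2, an arginase, was at 104 CPM in KO members against 54.2 CPM in WT members. Ptges, which makes prostaglandin E2 from the product of Ptgs2, had 93 and 20 UMIs. Cd33, an inhibitory lectin, was at 35.7 and 14.3 CPM. The stricter set kept 9 of 31 past 1.5-fold higher. In T-marked barcodes 13 of 31 were higher in KO and 1 lower, with a median of 0.40. Nos2 and Slpi, given above, are in this list too, and the rule itself had left out members with much Arg1 or S100a9.

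Macrophage and lipid-handling genes did not share a direction. Apoe, which carries lipids, was at 686 CPM in KO members against 324 CPM in WT members, and Trem2, a lipid receptor of tumor macrophages, at 74.1 and 33.0 CPM. Apoc2 was at 147 and 50.9 CPM. In the other direction Lpl, lipoprotein lipase, was at 8.74 and 26.8 CPM, and Hmox1, heme oxygenase 1, at 68.6 and 179 CPM. The macrophage list had 5 of 20 genes higher and 2 lower, and the list of tumor macrophage and lipid handling genes 8 of 30 higher and 8 lower. Of 35 hypoxia and glycolysis genes, 5 were higher and none lower. Among them Vegfa, the vascular growth factor, was at 190 and 104 CPM, Hk2, hexokinase 2, at 81.6 and 49.5 CPM and Hif1a at 402 and 245 CPM. In T-marked barcodes 13 of 35 hypoxia and glycolysis genes were higher in KO and none lower, with a median log2 ratio of 0.34.

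Receptor and respiratory genes differed little. None of 22 growth factor and cytokine receptor genes passed 1.5-fold, and Csf2rb was at 532 CPM in KO members against 447 CPM in WT members. Of 66 nuclear-encoded oxidative phosphorylation genes 1 was higher (Ndufa1, ratio 1.54) and 1 lower (Ndufs7), with a median log2 ratio of 0.06. Among calprotectin receptor and TLR genes 2 of 22 were higher, Cd33 and Cd14, and 1 was lower, Cd36. In the stricter set 1 was higher and 2 were lower, and Cd14 came inside 1.5-fold, at 1.45. Tlr4 was at 51.8 and 36.1 CPM and Tlr2 at 236 and 216 CPM. Of 7 other S100 genes measured, S100a1 alone passed 1.5-fold (66.4 and 42.7 CPM), and S100a6, S100a4 and S100a11 had ratios of 1.19 to 1.29.

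Further lists are given by their counts. Of 15 nonclassical monocyte genes 6 were lower and 1 higher; Eno3 had 41 KO and 128 WT UMIs, and Nr4a1, the factor those cells need, was at 170 and 171 CPM. Of 27 lysosome and cathepsin genes 3 were lower and 1 higher: Ctsl, cathepsin L, was at 415 and 253 CPM and Cst3, the protease inhibitor cystatin C, at 1985 and 3150 CPM. Of 24 NADPH oxidase and antioxidant genes 3 were lower and none higher, among them Prdx1, a peroxidase (454 and 721 CPM). Of 20 checkpoint and costimulatory ligand genes 6 were lower and 2 higher; Tnfsf13, the B cell survival factor APRIL, was at 76.3 and 35.1 CPM, and Slamf7 at 12.5 and 38.1 CPM.

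Immediate early genes, which cell dissociation can also raise, had 6 of 41 lower in KO and 2 higher, with a median log2 ratio of -0.33. Atf3, a stress-induced transcription factor, was at 190 and 417 CPM, Egr1 at 45.3 and 79.7 CPM, and Jun at 328 and 501 CPM. The higher genes were Socs3, the inhibitor of STAT3 signalling (499.6 and 215 CPM), and Zfp36l1, an RNA-decay factor (311 and 147 CPM). Socs3 and Zfp36l1 had ratios of 2.20 and 1.95 in the stricter set. The part of tissue handling in these values was not tested.

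Of 27 S phase genes 16 were lower in KO members, with none higher and a median log2 ratio of -0.87. Their counts were small: Mcm6, a helicase subunit, had 25 KO and 91 WT UMIs, and Pcna, the most abundant, was at 72.1 and 97.3 CPM. The stricter set gave 5 of 18 lower, with a median of -0.37. T-marked barcodes held S phase genes at a sum of 1411 CPM in KO and 1542 CPM in WT, above the 342 and 488 CPM of members, and the part of lymphocyte RNA was not tested. Of 26 G2 and M phase genes 10 were lower and 1 higher. With the stricter members these were 4 lower and 1 higher of 22, with a median of -0.27, beside 13.2% lower over all genes. Apoptosis and p53 genes had 10 of 26 lower and a median of -0.43; Bcl2 was at 3.78 and 19.7 CPM and Pmaip1 at 31.3 and 64.2 CPM. Of 40 transcription factors of the myeloid list 10 were lower and 1 higher. Spi1, which encodes the myeloid factor PU.1, was at 494 and 620 CPM, and Cebpb at 2117 and 1758 CPM.

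Markers of other cells also differed between the members of the libraries. All 14 NK cell genes were lower in KO members, with a summed level of 94.6 CPM in KO and 833 CPM in WT. Gzma (chr13:113093825-113100981), a granzyme, had 44 KO and 2631 WT UMIs, and 93.4% of thinned WT members had none. In the stricter set, which leaves out members by counts of the lymphocyte lists, 5 NK cell genes were still measured. Of these 4 were lower and none higher, with a median log2 ratio of -0.61, beside -3.69 in all members. Gzma was 3.33-fold lower there, at 1.69 and 5.62 CPM. T cell genes were lower in 12 of 13 and higher in 1, with sums of 138 and 278 CPM, against 8498 and 8361 CPM in T-marked barcodes. With the stricter members 2 of 4 T cell genes were lower and 1 higher. Dendritic cell genes were lower in 13 of 17: Cd209a was at 10.6 and 84.6 CPM, Mgl2 had 39 and 505 UMIs, and Fscn1 had 7 and 151. In the stricter set, which leaves out members with Cd209a, 9 of 12 were lower. Neutrophil genes were higher in 7 of 13 and lower in 1, with sums of 1406 and 728 CPM; Wfdc21 had 444 and 17 UMIs and G0s2 745 and 71. T-marked barcodes differed in the same direction, with 13 of 16 neutrophil genes higher in KO (6.27% of all genes were), a median of 2.84 and sums of 642 and 160 CPM. Per barcode G0s2 was at 0.707 UMIs in KO and 0.0598 in WT members, not above the 1.15 and 0.0611 of T-marked barcodes. Camp, Ngp and Ly6g, of the granule and surface of neutrophils, were each under 10 UMIs in both libraries. The part of these cells in the monocyte values was not tested beyond the stricter set.

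Members differed among themselves along Ly6c2. In each library they were ordered by the Ly6c2 share of their UMIs, and the top quartile (263 KO and 296 WT members) was set against the bottom quartile (264 and 297). Of 6579 genes measured, 163 (2.48%) were at least 1.5-fold higher and 226 (3.44%) at least 1.5-fold lower in the top quartile of both libraries. Ly6c2 itself, which set the order, ran from 500.3 to 2902 CPM in KO and from 876 to 7694 CPM in WT. Median depth was 10936 UMIs in the top and 11926 in the bottom quartile of KO, and 8313 and 9670 in WT.

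MHC class II was highest where Ly6c2 was lowest. The summed level of the list went from 10477 CPM in the bottom to 6219 CPM in the top quartile of KO, and from 27173 to 8570 CPM in WT. H2-Eb1 went from 909 to 273 CPM in KO and from 3172 to 464 CPM in WT. Of 12 class II genes 7 were lower in the top quartile of both libraries and none higher. The KO and WT sums lay closer together in the top quartile than in the bottom one. However, quartiles were cut within each library, so those of the same rank sit at unlike Ly6c2 levels. The KO top quartile, at 2902 CPM of Ly6c2, had a class II sum of 6219 CPM. WT quartile 2 (counted from the bottom), at 2278 CPM of Ly6c2, had 18513 CPM. The NK cell list sum was also lower at the top, going from 150 to 26.4 CPM in KO and from 1420 to 138 CPM in WT, and their part was not tested.

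Interferon genes ran the other way. Their sum went from 13254 to 17610 CPM in KO and from 14673 to 31227 CPM in WT, and 25 of 59 genes were higher in the top quartile of both libraries and none lower. Irf7 went from 74.3 to 169 CPM in KO and from 292 to 970 CPM in WT, and Bst2 from 134 to 290.0 and from 373 to 893 CPM. The list sums of the libraries lay closer together in the bottom quartile than in the top one, again at unlike Ly6c2 levels. The KO top quartile, at 2902 CPM of Ly6c2, had an interferon sum of 17610 CPM. WT quartile 2, at 2278 CPM of Ly6c2, had 19395 CPM. Of the classical monocyte genes, Hp, Mgst1 and F13a1 were higher at the top in both libraries: Hp went from 587 to 1171 CPM in KO and from 168 to 1180 CPM in WT, and Mgst1 from 216 to 455 and from 65.8 to 444 CPM.

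Chemokine and hypoxia genes were lower at the top. Of 17 chemokine genes 9 were lower in the top quartile of both libraries, among them Ccl2, the ligand of CCR2, which went from 840 to 466 CPM in KO and from 975 to 463 CPM in WT. Of 34 hypoxia and glycolysis genes 11 were lower. Vegfa went from 264 to 132 CPM in KO and from 131 to 59.7 CPM in WT. Of 17 macrophage genes 7 were lower, and Spp1, osteopontin, went from 551 to 178 CPM in KO and from 375 to 77.4 CPM in WT. Abca1 was lower at the top in both libraries, at 84.0 against 152 CPM in KO and 8.25 against 14.6 CPM in WT.

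**Figure D4:**
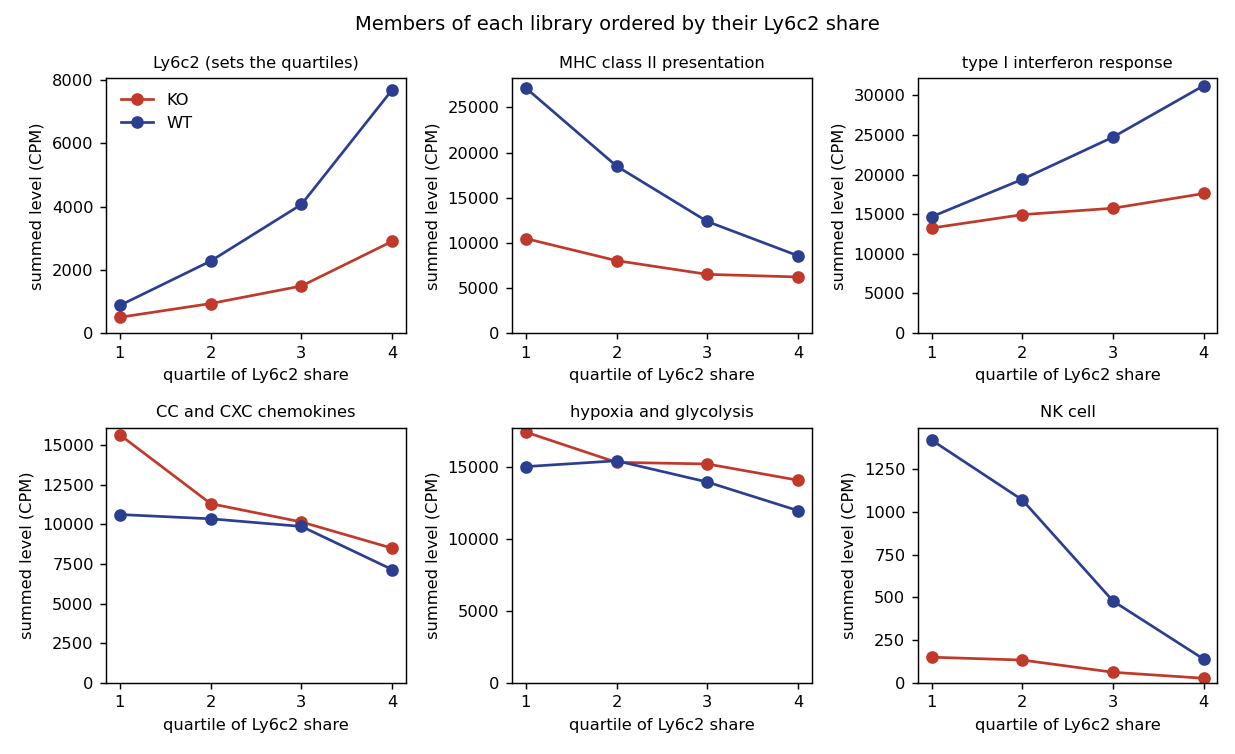
Each panel gives the summed CPM of a list (y axis) in members of each quartile of the Ly6c2 share (x axis), KO in red and WT in blue; each quartile holds 263 to 297 members. Class II goes from 27173 to 8570 CPM in WT and from 10477 to 6219 CPM in KO, interferon genes reach 31227 CPM in WT and 17610 CPM in KO, and NK cell genes are lower at the top, as class II is.

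Members were set beside barcodes that met every criterion but 1. The sets were small: 194 KO and 47 WT barcodes failed only on Cxcl1, 46 and 113 on the interferon genes, 29 and 71 on C1q, and 26 and 14 on Arg1. At 2-fold in both libraries, members were higher in 0.343% and lower in 0.71% of 8173 genes against the Cxcl1 set, 0.736% and 1.83% of 8014 against the interferon set, 0.626% and 1.11% of 7989 against the C1q set, and 2.09% and 2.86% of 7946 against the Arg1 set. These cells were chosen by markers of the states, so the levels are a description.

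The Cxcl1 set carried more inflammatory cytokine RNA. Il1a was at 146 CPM there and 30.7 CPM in members of KO, and at 82.1 and 11.3 CPM in WT. Tnf was at 269 and 58.8 CPM in KO and at 387 and 85.4 CPM in WT. Of 33 inflammatory list genes 9 were lower in members of both libraries. Krt8 and Rhox5, which are not leukocyte genes, also stood higher in that set, Krt8 at 21.6 CPM against 0.551 CPM in KO and 315 against 6.54 CPM in WT. The C1q set carried macrophage chemokines and markers: Ccl12 was at 549 CPM against 12.4 CPM in KO members and at 293 against 29.6 CPM in WT, and Ms4a7 at 185 against 16.8 CPM and 52.8 against 8.14 CPM. Of 20 macrophage genes 10 were lower in members of both libraries.

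The interferon set held other interferon genes than those of the rule at high levels. Cxcl10, a T cell attractant, was at 5369 CPM against 279 CPM in KO members and at 1981 against 212 CPM in WT, and 48 of 65 interferon list genes were lower in members of both libraries. The Arg1 set held Pf4 at 4350 CPM against 60.2 CPM in KO members and 2851 against 71.5 CPM in WT. Ppbp, with Pf4 a chemokine of platelets, was at 764 against 3.62 CPM and 245 against 0.336 CPM. Hypoxia genes were lower in members than in the Arg1 set for 15 of 35 genes in both libraries.

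The differences between KO and WT members were met again in the neighbouring sets for some genes and not for others. Abca1 had KO over WT ratios of 24.3, 17.2 and 3.79 in the Cxcl1, interferon and C1q sets. Thbs1 had 2.54, 2.81 and 2.25, close to its 2.23 in members. Fn1 had 2.46 and 2.38 in the Cxcl1 and interferon sets, and 1.06 in the C1q set. Irf7 was 4.40-fold lower in KO in the Cxcl1 set, 1.70-fold lower in the interferon set and 1.35-fold lower in the C1q set, beside 5.51-fold in members. Whether these ratios differ between the sets was not tested, since each rests on 1 library per group.

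**Figure D5:**
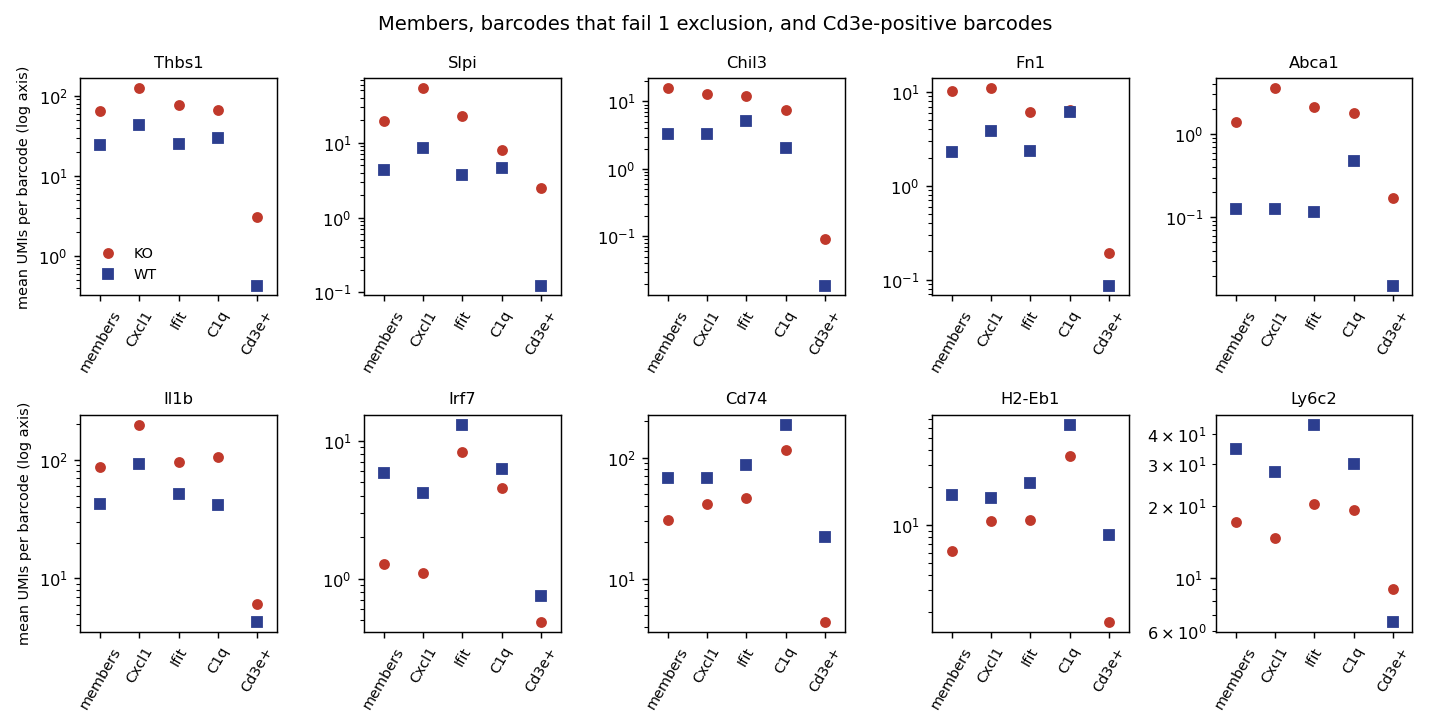
Each panel gives a gene's mean UMIs per barcode (y axis, log) in members, in barcodes that fail only on Cxcl1, the interferon genes (Ifit) or C1q, and in T-marked barcodes (Cd3e+), KO as red circles and WT as blue squares. Thbs1, Slpi, Chil3, Abca1 and Il1b are higher in KO in every set drawn, Irf7, Cd74 and H2-Eb1 are lower in KO in every set drawn, and Fn1 is level in the C1q set (ratio 1.06).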

How the data were processed

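Single-cell libraries of CD45+ LLC tumor cells were analysed, 1 KO and 1 WT. The deposited values are whole UMI counts, not normalized, from Cell Ranger 6.0.2, per the file headers. Builds mm10 and GRCm38 and the tools R 4.2.1, Seurat 4.3.0 and Cell Ranger 6.1.2 are listed without steps, per the submitters' processing notes. The smallest deposited barcode total was 501 UMIs in KO and 500 in WT, so a minimum preceded deposit. The libraries held 11836 barcodes and 111214201 UMIs (KO), and 12027 and 102548178 (WT), with filtered medians of 8500 and 6834 UMIs. The bone marrow matrices were not used.

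Counts were summed over members and scaled to CPM (Python 3.11.15, numpy 2.4.6, scipy 1.17.1, pandas 2.3.3). Ratios carry exact conditional Poisson intervals, and shares Clopper-Pearson intervals, at 95%. A gene counted as higher or lower at a ratio of 1.5, with at least 50 UMIs over both libraries. A gene at 0 in a library was set to 3 UMIs. Doublet scores came from scrublet in scanpy 1.11.5; its threshold marked 8.37% of KO barcodes, but 0.00831% of WT barcodes, where the top 9.62% by score were used instead. Members with doublet marks stayed in. The ratio intervals were tested on simulated data. Coordinates are from GENCODE for GRCm38, and promoters from RefSeq.

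The members and gene lists were chosen with earlier results of these data known. Named genes were S100a8, S100a9 and the rule's genes; the 12 highest and 12 lowest ratios among genes that reached 50 CPM in KO or WT and 100 UMIs, with members no lower than 0.2 of the highest of the sets compared (leaving out mitochondrial, ribosomal, hemoglobin, receptor and immunoglobulin, sex-linked and predicted genes); from each list up to 4 by ratio and 3 by level; and 5 each way against other sets. Further list genes were named after their values were seen. Some genes that the rule takes are not reported here. Alternatives changed the rule's minima, doublets, thinning, scaling, filters and members with marks of other cells.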

Additional observations from a re-analysis of the deposited data

How the results depend on the processing

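The share ratio of members, 0.904, turned to 1.02 with at least 3 Ly6c2 UMIs, 1.00 without members of at least 5 lymphocyte-list UMIs and 1.01 in the stricter set; it was 0.757 with the rule's minima set as levels at equal depth, 0.725 with at least 10 Ly6c2 UMIs, and 0.442 among barcodes with Lyz2 and no Cd3e. With at least 200 UMIs per gene, 257 genes were higher and 798 lower, since fewer genes were tested; centred on the median gene, 689 were higher and 1052 lower. The interferon list median was -0.95 in the stricter set and -0.61 when centred. The inflammatory list median, 0.36, was 0.25 without doublets, 0.24 with minima as levels, 0.25 with at least 10 Ly6c2 UMIs, 0.49 with at least 3, 0.24 after thinning, 0.15 without lymphocyte-marked members, 0.15 in the stricter set and 0.54 when centred; the cause was not tested. The MHC class II median, -1.27, was -1.27 without lymphocyte-marked members, -1.15 in the stricter set and -1.09 when centred. Of 133 named genes past 1.5-fold, 0 were counted as reversed and 24 came inside 1.5-fold in some alternative. Low-count genes could still turn in the stricter set. Il12b was 2.16-fold lower in KO there, with its 0 in KO set to 3 UMIs. Leaving out members with 2 or more lymphocyte or neutrophil UMIs kept 22 KO and 109 WT members, too few, and was not used for values. The stricter set, its parts and the centring were chosen after seeing the data. No paired analysis was possible because each group is 1 library. Depth limits genes near 50 UMIs.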
